A study of Caenorhabditis elegans with 8 samples.

Results

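The genes described are the numbered cuticle collagen genes of the nematode Caenorhabditis elegans, the loci named col followed by a number. All rows of the deposited count table whose gene name had that form were taken, except col-7, col-19, col-62 and col-63, which left 155 of the table's 46739 genes. RNA came from whole hermaphrodite worms of the wild-type strain N2, which received RNAi from young adulthood and were collected at day 5 of adult life. There were 3 libraries labelled as RNAi against isoform A of vab-3 (numbers 1, 2 and 3, called A libraries here), 3 labelled as RNAi against isoform C of vab-3 (numbers 1, 2 and 3, called C libraries) and 2 controls on the empty RNAi vector L4440 (numbers 1 and 3). vab-3 is the worm's Pax6 gene, which encodes a transcription factor that acts in head development. RNAi lowers a transcript through double-stranded RNA and is not a deletion. The labels give the RNAi target but no sequence of the construct, and they do not say whether libraries came from separate cultures, so p-values measure only the spread between these libraries. Whole worms hold all tissues, so fewer cells of a type and less RNA per cell cannot be told apart.

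The cuticle is the collagenous outer layer of the worm, secreted by the epidermis. A new one is made at each larval moult and the last of these is the adult cuticle. Its collagens are short chains with Gly-X-Y repeats that assemble in threes, are trimmed, crosslinked and deposited outside the cell. Different genes are transcribed in waves within each moulting cycle, and some are used at particular stages such as the dauer larva or the adult.

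Libraries held 30289733 to 43364047 counts each. The numbered col genes took 0.516, 0.931 and 0.485% of the counts in A libraries 1, 2 and 3, 0.299, 0.490 and 0.234% in C libraries 1, 2 and 3, and 0.284 and 0.271% in controls 1 and 3. The share was largest in A library 2, and all 3 A libraries lay above both controls. The 95% Wilson interval of each share reached at most 0.00342 percentage points to either side, which covers counting error only. vab-3 itself had 4.43, 5.52 and 4.38 CPM in the A libraries, 4.08, 2.04 and 4.84 CPM in the C libraries, and 2.23 and 2.12 CPM in the controls, where CPM is the count scaled to a common library size after TMM correction. Of the 6 RNAi libraries, C library 2 alone lay below both controls. The A against control difference of vab-3 was 1.13 ± 0.34 on the log2 scale (SE, edgeR quasi-likelihood adjusted p = 0.121), a direction that goes against the RNAi label. Counts over a whole gene do not separate its isoforms, so A and C below are the libraries so labelled. Of 10 genes fixed as general whole-worm markers, 9 could be tested, and none was at 0 in every library.

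All 155 genes were found in the WBcel235 annotation, 152 of them as protein-coding and col-66, col-136 and col-182 as pseudogenes. Encoded proteins had a median of 304 residues (range 154 to 740), and 139 of them had 250 to 400. The genes lay on all 6 chromosomes, with 42 on chromosome IV, 31 on V, 27 on X, 24 on II, 19 on I and 12 on III. An exon of 37 genes overlapped an exon of another coding gene. The library kit does not mark the strand, so reads from such overlaps cannot be told apart.

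Enough counts for a test were present for 117 of the 155 genes. The other 38 had at most 18 counts in any library, and col-185 had none in all 8. A gene could pass that filter through its counts in the A libraries alone. The 95 genes with at least 10 counts in both controls are therefore given beside the 117 for the class split and for groups that do not overlap. Fitted medians and counts of called genes are given for the 117 only, and medians of single A libraries for both sets.

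Levels between genes are compared in RPKM, the authors' deposited values per length. In the controls they ran over more than 3 orders of magnitude. Mean control level was 100 RPKM or more for 9 genes, 10 to under 100 for 17, 1 to under 10 for 54, 0.1 to under 1 for 39 and under 0.1 for 36. The upper 9 held 71.3% of all numbered col CPM in the controls. They were col-122, col-181, col-119, col-106, col-184, col-101, col-143, col-140 and col-95. col-122 had the highest CPM in each of the 8 libraries. Its level averaged 706 ± 298 RPKM in A libraries, 455 ± 176 RPKM in C libraries (SD, n = 3 each) and 405 RPKM in the 2 controls.

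The number of genes at or above 10 RPKM was 33, 56 and 67 in A libraries 1, 2 and 3, 22, 34 and 28 in C libraries 1, 2 and 3, and 26 and 25 in the controls. A libraries 2 and 3 thus had more genes at that level than any other library.

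To separate the genes that were high in A libraries 2 and 3 from the rest, a gene was placed in an A2/A3-high class where its log2 CPM lay at least 1 (a doubling) above the mean of the 2 controls in both libraries. This class held 80 of the 117 tested genes and the other class 37. Of the 95 genes with at least 10 counts in both controls, 62 were A2/A3-high and 33 were not. Over all 14772 genes tested, 7.12% met the same rule. The class was made from these values, so its levels in A libraries 2 and 3 are a description and carry no test. col-124 and col-111 lay just inside, with a smaller of the 2 differences of 1.06 and 1.18. col-177 and col-89 lay just outside, with 0.93 and 0.87.

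**Figure D1:**
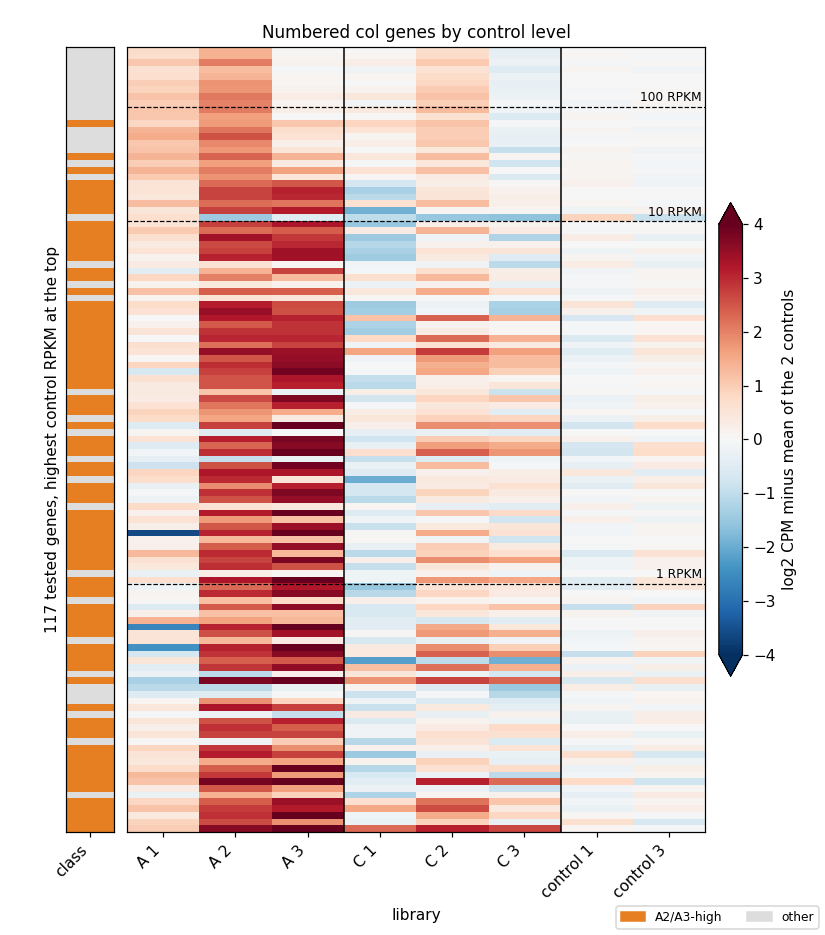
Each row is one of the 117 tested genes, ordered by mean control RPKM with the highest at the top, and each column is a library. Colour gives log2 CPM minus the mean of the 2 controls, dashed lines mark 100, 10 and 1 RPKM, and the left strip marks the A2/A3-high class in orange. Of the 9 genes above 100 RPKM none is in that class, while 44 of the 54 between 1 and 10 RPKM are.

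The classes differed in level as the map of all genes by control level shows. None of the 9 genes of 100 RPKM or more was A2/A3-high. The class took 8 of 17 genes at 10 to under 100 RPKM, 44 of 54 at 1 to under 10 RPKM, 24 of the 33 tested at 0.1 to under 1 RPKM and all 4 tested below that. Levels set by the C libraries in place of the controls, a choice made after seeing the data, gave 0 of 10, 11 of 18, 48 of 60, 17 of 24 and 4 of 5. A gene of low control level could pass the filter through its A libraries, so the shares at the low levels are partly set by the filter. Only 4 of the 36 genes under 0.1 RPKM in the controls were tested. Of the 22 tested genes without 10 counts in both controls, 18 were A2/A3-high.

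A library 2 and A library 3 also differed from each other along this range. The 9 highest genes were all lower in A library 3 than in A library 2, with a median log2 ratio of -1.60. Of the 54 genes at 1 to under 10 RPKM, 33 were higher in A library 3, with a median ratio of 0.46. Median log2 differences from the control mean for the 9 highest genes were 0.90, 1.75 and 0.11 in A libraries 1, 2 and 3. The medians for the 54 genes were 0.36, 2.54 and 3.07. The most strongly transcribed collagens were thus highest in A library 2 and near the controls in A library 3, while the genes of middle level were high in both.

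**Figure D2:**
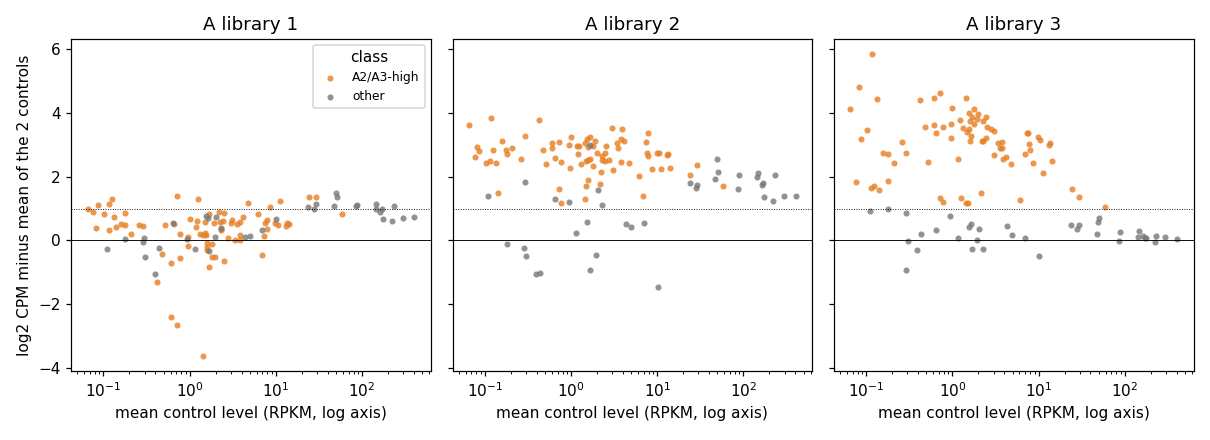
Mean control level in RPKM on a log axis is plotted against log2 CPM minus the mean of the 2 controls, one panel per A library and one point per tested gene. The dotted line marks the threshold of 1, and points at the right end sit near 0 in A library 3, at a median of 0.11 for genes of 100 RPKM or more.

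Summed over genes, the A2/A3-high class had 570, 1888 and 2102 CPM in A libraries 1, 2 and 3, 370, 682 and 405 CPM in C libraries 1, 2 and 3, and 333 and 345 CPM in the controls. The other class had 4503, 7838 and 2679 CPM in the A libraries, 2582, 4293 and 1925 CPM in the C libraries, and 2446 and 2389 CPM in the controls. A2/A3-high genes made up 43.9% of numbered col CPM in A library 3, against 11.2 to 19.4% in each of the other 7 libraries. The 10 highest genes of a library held 47.1% of that sum in A library 3 and 67.1 to 74.7% in the others.

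**Figure D3:**
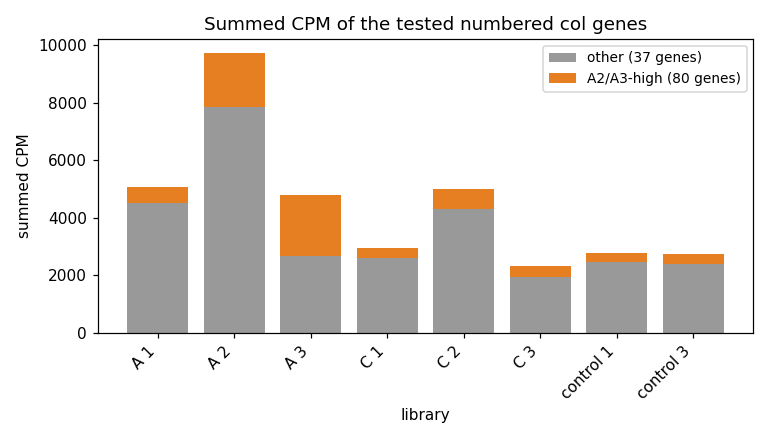
Bars give the summed CPM of the tested numbered col genes per library, stacked by class. A library 2 has the tallest bar, and the orange A2/A3-high part is of similar height in A libraries 2 and 3 (1888 and 2102 CPM).

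The other class itself was not uniform. It held 17 genes of 20 RPKM or more in the controls and 20 below that level. This cut is not one of the levels used above. A cut at 10 RPKM would also take in col-183 (10.2 RPKM), which was highest in control 1. All 17 had their highest value in A library 2, and 16 of them had their lowest in C library 3. Of all 14772 genes tested, 4397 had their highest value in A library 2 and 1604 their lowest in C library 3. A library 2 was also the lowest library for 3744 of all genes tested, so it often stood at an extreme. Their differences from the control mean were 0.62 to 1.48 in A library 1, 1.25 to 2.55 in A library 2 and -0.03 to 0.71 in A library 3, on the log2 scale. In the C libraries they were -0.14 to 0.54, 0.33 to 1.26 and -0.93 to -0.06 for numbers 1, 2 and 3. These genes were therefore above the control mean in A libraries 1 and 2 and in C library 2, and below it in C library 3, all 17 together. As all 17 lay above 1 in A library 2, the class rule itself holds their A library 3 values under 1. That A library 2 stood above A library 3 in these genes is thus set by the rule.

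col-119, on chromosome IV at 8978926 to 8979795, is an example of these strongly transcribed genes. It had 485, 945 and 254 CPM in A libraries 1, 2 and 3, 274, 477 and 193 CPM in C libraries 1, 2 and 3, and 223 and 235.05 CPM in the controls. The A and control groups did not overlap, but A library 3 came within 20 CPM of a control. Its A against control difference was 1.29 ± 0.61 (log2, SE, edgeR adjusted p = 0.237).

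col-122 (IV, 9563379 to 9564441) had 668, 1071 and 422 CPM in the A libraries, 405, 664 and 308 CPM in the C libraries, and 411 and 399 CPM in the controls. A library 2 and C library 2 were the highest of their groups. Its A against control difference was 0.83 ± 0.46 (log2, SE, edgeR adjusted p = 0.300). The other 6 genes with the highest control RPKM had the same order within the A libraries, and their A against control differences were 0.70 to 1.37 with edgeR adjusted p of 0.214 to 0.355.

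The 20 other-class genes of lower level had median differences of 0.09, 0.47 and 0.20 in A libraries 1, 2 and 3 and -0.16, -0.08 and -0.35 in C libraries 1, 2 and 3. Within 1.5-fold of the control mean lay 15, 9 and 15 of the 20 in A libraries 1, 2 and 3 and 13, 18 and 13 in C libraries 1, 2 and 3. Of the 17 genes of higher level, 0, 0 and 15 did so in the A libraries and 17, 4 and 14 in the C libraries. col-76 (II, 8204339 to 8207495) had 9.29, 11.3 and 9.58 CPM in the A libraries, 7.21, 9.47 and 6.88 CPM in the C libraries, and 8.16 and 8.70 CPM in the controls. Its values stayed close in all 8 libraries, with an A against control difference of 0.25 ± 0.17 (log2, SE, edgeR adjusted p = 0.363). col-53 and col-68 also had small fitted A against control differences, of 0.02 ± 0.26 and -0.10 ± 0.22. Every C library of col-68 nevertheless lay below both controls.

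col-183 (X, 13466643 to 13467764) had the lowest difference in A libraries 2 and 3 among genes of at least 1 CPM. It had 13.95, 3.21 and 6.23 CPM in the A libraries, 4.35, 3.07 and 2.88 CPM in the C libraries, and 16.3 and 4.75 CPM in the controls. The controls themselves differed more than 3-fold, so the groups A and control overlapped. col-183 lies 1690 bases from col-184, one of the most strongly transcribed genes, which had 281, 446 and 186 CPM in the A libraries and 175 CPM in both controls. col-184 was thus highest in A library 2, where col-183 was lower than in the other A libraries.

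col-116 had 1.35, 0.863 and 1.39 CPM in the A libraries, 0.864, 1.17 and 1.498 CPM in the C libraries, and 1.58 and 1.83 CPM in the controls. All A and all C values lay below both controls. Its A against control difference was -0.49 ± 0.30 (log2, SE, edgeR adjusted p = 0.326). An exon of col-116 overlaps an exon of the coding gene F17E9.2.

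Within the A2/A3-high class, 77 of the 80 genes were higher in A libraries 2 and 3 than in each of the other 6 libraries, as were 2371 of all 14772 genes tested. The class rule largely sets this count. A library 3 had the highest value for 55 genes and A library 2 for 25, beside 1432 and 4397 of all genes tested. Median differences from the control mean were 0.48, 2.70 and 3.12 in A libraries 1, 2 and 3 and -0.28, 0.82 and 0.35 in C libraries 1, 2 and 3. C library 2 lay above both controls for 64 of the 80 genes, C library 3 for 55 and C library 1 for 19. Of all 14772 genes tested, 5221, 4655 and 4589 lay above both controls in C libraries 2, 3 and 1. C library 1 was the lowest of the 8 libraries for 37 of the 80, and for 2212 of all genes tested. In 29 genes C library 1 lay below both controls while C library 2 lay above both, as in 1108 of all genes tested. A library 1 met the 2-fold threshold for 10 of the 80 genes (309 of all genes tested): col-74, col-92, col-93, col-94, col-126, col-131, col-150, col-159, col-160 and col-176.

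col-17 (II, 4866436 to 4867576) had 13.03, 86.5 and 59.8 CPM in A libraries 1, 2 and 3, 2.98, 7.64 and 3.57 CPM in C libraries 1, 2 and 3, and 10.3 and 6.74 CPM in the controls. Each A library lay above every C library and both controls, and C libraries 1 and 3 lay below both controls. The A against C difference was 3.47 ± 0.76 (log2, SE, edgeR adjusted p = 0.137). col-90 (III, 7948838 to 7950068) followed the same order, with 7.31, 38.4 and 26.7 CPM in the A libraries, 1.58, 3.66 and 1.76 CPM in the C libraries, and 6.23 and 3.02 CPM in the controls. Its A against C difference was 3.35 ± 0.71 (log2, SE, edgeR adjusted p = 0.137).

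col-129 (IV, 12108734 to 12110439) had C values above the controls. It had 4.75, 37.3 and 35.3 CPM in the A libraries, 9.63, 22.9 and 10.2 CPM in the C libraries, and 2.25 and 4.55 CPM in the controls. All 3 C libraries lay above A library 1 and above both controls. Its C against control difference was 2.08 ± 0.96 (log2, SE, edgeR adjusted p = 0.731). In all, 15 A2/A3-high genes had every C library above both controls (1876 of all genes tested), and 4 (col-54, col-131, col-150 and col-172) had every C library below both (2285 of all genes tested).

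The largest differences in A libraries 2 and 3 among genes of at least 1 CPM belonged to col-176, col-88, col-175, col-138, col-49 and col-146. col-176 (X, 10077597 to 10078728) had 10, 63 and 347 counts in A libraries 1, 2 and 3, 2, 55 and 24 counts in C libraries 1, 2 and 3, and 8 and 1 counts in the controls. col-146 (V, 9629943 to 9631012) had 1.44, 8.83 and 16.8 CPM in the A libraries, 0.775, 3.05 and 2.71 CPM in the C libraries, and 0.617 and 1.26 CPM in the controls. Both were highest in A library 3, with adjusted p of 0.177 and 0.152 for A against control by edgeR.

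The other 4 of these genes were below both controls in A library 1 and far above them in A libraries 2 and 3. col-138 (IV, 17182884 to 17183729) had 2, 338 and 1203 counts in A libraries 1, 2 and 3, 47, 164 and 70 counts in C libraries 1, 2 and 3, and 46 and 44 counts in the controls. As CPM, A library 3 stood at 30.97 CPM and A library 1 at 0.0575 CPM, with both controls between them at 1.23 and 1.46 CPM. col-175 likewise had 2, 172 and 678 counts in the A libraries, 16, 84 and 31 counts in the C libraries, and 24 and 20 counts in the controls. col-49 had 2, 146 and 517 counts in the A libraries, 24, 92 and 39 counts in the C libraries, and 20 and 17 counts in the controls. col-88 had 4, 165 and 344 counts in the A libraries, 47, 115 and 72 counts in the C libraries, and 8 and 18 counts in the controls. In these 4 genes the A libraries thus lay on both sides of the controls. The A against control differences were 3.40 to 3.62 with SEs of 1.505 to 1.72, and edgeR adjusted p was 0.193 to 0.259. A further 6 A2/A3-high genes had A library 1 below both controls (col-14, col-38, col-60, col-71, col-77 and col-104). With those 4 this made 10 of the 80, beside 5488 of all genes tested.

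**Figure D4:**
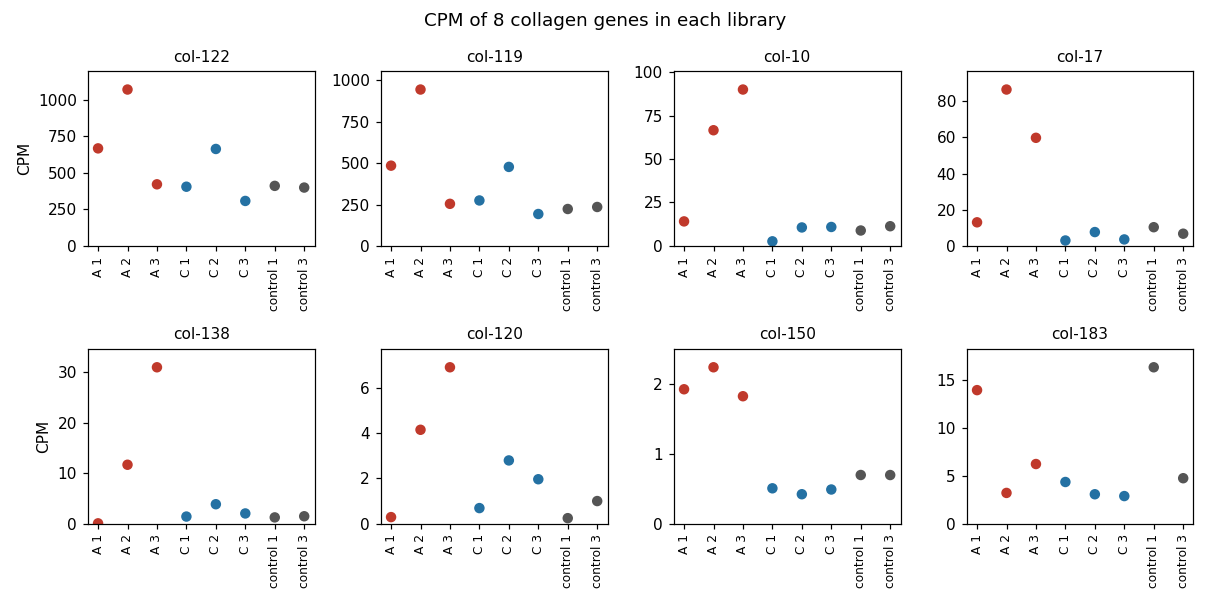
CPM of 8 genes in each library, on linear axes that start at 0, with A libraries in red, C libraries in blue and controls in grey. col-122 and col-119 peak in A library 2, col-10, col-138 and col-120 in A library 3, and col-150 has its 3 A values together (1.93, 2.24 and 1.83 CPM) above all others.

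For A against control, edgeR's quasi-likelihood test called none of the 14772 genes at an adjusted p of 0.05 (0% of all), and so none of the 117 numbered col genes. At an unadjusted p under 0.05 it gave 3840 genes in all, 2024 of them higher in A libraries. Of the numbered col genes it gave 73, all higher in A libraries. The median log2 difference over the 117 was 2.25, with 110 above 0, against 0.03 and 8046 of 14772 over all genes tested. The 117 include 22 genes without 10 counts in both controls, which could pass the filter through their A libraries. Medians from the control mean in A libraries 1, 2 and 3 were 0.52, 2.42 and 2.54 for the 117. For the 95 genes with at least 10 counts in both controls they were 0.54, 2.33 and 2.49. DESeq2 called 46 of the 117, all higher (5.23% of all genes higher), of which 45 were A2/A3-high, while limma-voom called none. Without A library 1, edgeR called 66 of the numbered col genes, all higher (6.47% of all genes higher), 65 of them A2/A3-high. Both fits compare values that the class rule used, so how their calls split by class is largely set by that rule. Leaving out A library 2 or A library 3 gave none. With both left out, which leaves A library 1 against the controls and takes its spread from the other groups, the median was 0.53.

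Genes with the smallest p for A against control were col-150, col-94, col-118, col-93, col-159 and col-92, each with an edgeR adjusted p of 0.121. In each of these 6, all 3 A libraries lay above both controls. col-94 (III, 10986808 to 10987873) had 25.5, 50.8 and 47.3 CPM in A libraries 1, 2 and 3, 16.4, 25.5 and 12.5 CPM in C libraries 1, 2 and 3, and 11.4 and 10.2 CPM in the controls. The C libraries too were above both controls, and the A against control difference was 1.93 ± 0.40 (log2, SE). col-93 and col-92, next to it on chromosome III, had differences of 1.70 ± 0.37 and 2.02 ± 0.51. The 3 proteins have 304 residues each, and the treatment of reads that match close copies is not given in the sources used here. col-159 had a difference of 2.097 ± 0.48, and its exons overlap those of col-160 on the same strand. col-118 (IV, 8848218 to 8849673) had 3.999, 7.35 and 5.998 CPM in the A libraries, 2.59, 3.21 and 1.56 CPM in the C libraries, and 2.23 and 2.03 CPM in the controls.

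All A libraries lay above both controls for 79 of the 117 genes (21.5% of all genes tested), 59 of them A2/A3-high, and for 64 of the 95 with at least 10 counts in both controls. The class rule partly sets the 59. All lay below for 1, col-116 (22.2% of all genes). This count and the one for C share the same 2 controls.

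For C against control, edgeR called 14 of all genes (0.0948%) and none of the numbered col genes. At an unadjusted p under 0.05, 1 numbered col gene was higher and 2 were lower, beside 638 higher and 446 lower of all 14772 genes tested. DESeq2 and limma-voom also called none. The median log2 difference was 0.22 with 75 of 117 above 0, against -0.01 and 6872 of 14772 over all genes tested. The median of the numbered col genes turned to -0.06 without C library 2, and to -0.15 with the replicate block described below. The medians of single C libraries were -0.14, 0.60 and 0.13 for numbers 1, 2 and 3, so C library 2 stood above the other two.

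All C libraries lay above both controls for 16 of the 117 genes (12.7% of all genes tested) and below both for 9 (15.5% of all genes tested). Of the 95 genes with at least 10 counts in both controls, 12 lay above and 6 below. The 16 were col-13, col-49, col-60, col-81, col-88, col-92, col-94, col-126, col-127, col-129, col-135, col-137, col-139, col-142, col-159 and col-160. The 9 were col-54, col-68, col-89, col-116, col-121, col-131, col-150, col-172 and col-183. col-135 (IV, 15129655 to 15131797), whose protein of 660 residues is among the longest, had 7.05, 12.6 and 5.33 CPM in A libraries, 5.72, 7.94 and 7.66 CPM in C libraries, and 3.54 and 4.91 CPM in the controls. Its C against control difference was 0.75 ± 0.36 (log2, SE, edgeR adjusted p = 0.731). col-142 had 0.82 ± 0.41 in the same comparison, with an edgeR adjusted p of 0.744.

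For A against C, edgeR called 6 of all genes (0.0406%), among them 1 numbered col gene, col-150. This gene lies on chromosome V at 10293563 to 10294649 on the minus strand and encodes 297 residues. col-150 had 1.93, 2.24 and 1.83 CPM in A libraries 1, 2 and 3, 0.507, 0.422 and 0.490 CPM in C libraries 1, 2 and 3, and 0.698 and 0.697 CPM in the controls. The 3 groups did not overlap, with A highest and C lowest, and A library 1 was as high as the other A libraries. The A against C difference was 2.07 ± 0.21 (log2, SE, edgeR adjusted p = 0.0337). It rests on 65 to 71 counts in each A library and 17 or 18 in each C library. Leaving out any single library other than A library 1 raised the adjusted p above 0.05, to between 0.0770 and 0.194, with the log2 difference between 1.97 and 2.11.

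The next genes by p in this comparison were col-34, col-99, col-90, col-118 and col-17, each with an edgeR adjusted p of 0.137. col-34 (IV, 4243545 to 4244610) had 2.16, 4.73 and 3.30 CPM in A libraries, 1.28, 1.34 and 0.807 CPM in C libraries, and 1.64 and 1.23 CPM in the controls. Its A against C difference was 1.56 ± 0.32 (log2, SE). The median difference over the 117 genes was 1.44, with 114 above 0, against 0.02 and 7975 of 14772 over all genes tested. All A libraries lay above all C libraries for 38 genes (12.7% of all genes tested), and none had all A libraries below all C libraries (11.2% of all genes tested). Of the 95 genes with at least 10 counts in both controls, 31 had all A libraries above all C libraries.

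Same-numbered A and C libraries deviated together across genes. A library 3, though, correlated less with C library 3 (0.220) than with C library 2 (0.300). A model that also holds the replicate number (the replicate block) is given as an alternative. With it, edgeR called 34 numbered col genes for A against C, all higher in A (7.67% of all genes higher), 23 A2/A3-high and 11 of the other class. DESeq2, without the block, called 34 as well, all higher (3.78% of all genes higher), 33 of them A2/A3-high. Without A library 1 edgeR called 51, all higher (4.76% of all genes higher), 50 of them A2/A3-high. The class was made from the same A values, so these splits by class are no separate evidence for it. For A against control the block gave 11, all higher (2.56% of all genes higher), 6 A2/A3-high and 5 of the other class. That fit also matches the controls to A libraries by number, a pairing that was not accepted. Same-numbered control and A libraries had correlations of 0.216 and 0.025, and control 3 with A library 2 had 0.266.

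Several numbered col genes are neighbours in the genome. There were 25 pairs with no other coding gene between them, which took in 43 of the genes, and both members were tested in 19. Both were A2/A3-high in 13 pairs, both were of the other class in 3, and the classes differed in 3. The 3 mixed pairs were col-17 with col-20, col-20 with col-73, and col-39 with col-80. col-20 lies between col-17 and col-73 on chromosome II, and its control level of 50.5 RPKM stood beside 7.88 RPKM for col-17 and 7.32 RPKM for col-73. Mean log2 differences in A libraries 2 and 3 were 1.43 for col-20, 3.10 for col-17 and 3.22 for col-73. On the X chromosome col-167, col-168, col-169 and col-170 lie between 6323488 and 6332611 on the same strand. Their mean differences in A libraries 2 and 3 were 2.83, 2.69, 2.86 and 2.82. col-178 and col-179, also on X, were of the other class, with 1.16 and 1.05.

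The A2/A3-high genes encoded proteins with a median of 300 residues (277 to 428, 79 genes with a coding length), against 319 (278 to 735) for the 37 others. The median number of coding exons was 2 for A2/A3-high genes and 3 for the others. A2/A3-high genes were found on every chromosome, with 24 of 33 tested on IV, 19 of 25 on V, 14 of 21 on X, 9 of 16 on II, 7 of 12 on III and 7 of 10 on I.

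Some genes have known roles. col-2 and col-40 are collagens of the dauer larva, the resting stage. col-2 had 8, 2 and 1 counts in A libraries, 2, 4 and 1 counts in C libraries, and 8 and 5 counts in the controls. col-40 had no count in the A libraries, 1 count in all in the C libraries and 1 count in each control. A count of 0 allows up to 3 counts, so differences in col-40 were not detectable at this depth.

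col-10, col-13 and col-120 are collagens that long-lived worms have been reported to need for their longevity. col-10 (V, 9164292 to 9165307) had 14.1, 66.6 and 90.1 CPM in A libraries 1, 2 and 3, 2.62, 10.6 and 10.9 CPM in C libraries 1, 2 and 3, and 8.86 and 11.3 CPM in the controls. All A values lay above all others, and C library 1 was the lowest. Its A against control difference was 2.499 ± 0.92 (log2, SE, edgeR adjusted p = 0.161). col-13 (V, 10420788 to 10421902) had 1.78, 7.80 and 16.5 CPM in the A libraries, 1.34, 4.31 and 3.74 CPM in the C libraries, and 1.02 and 1.29 CPM in the controls. Both RNAi groups lay above the controls, with an A against control difference of 2.91 ± 1.00 and a C against control difference of 1.45 ± 0.97 (log2, SE, edgeR adjusted p = 0.147 and 0.809). col-12, a close copy of col-13 that lies next to it, had 2.61 ± 1.04 and 1.13 ± 1.00. Both proteins have 316 residues, and reads that match both could be split between them. col-120 (IV, 9260610 to 9261787) had 0.288, 4.14 and 6.90 CPM in the A libraries, 0.686, 2.79 and 1.96 CPM in the C libraries, and 0.242 and 0.996 CPM in the controls. A library 1 stood with the controls, and the controls themselves differed about 4-fold.

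col-99 encodes a transmembrane collagen of the nervous system, not a cuticle chain. It had 6.42, 5.52 and 5.05 CPM in A libraries, 3.96, 2.95 and 2.77 CPM in C libraries, and 4.24 and 3.25 CPM in the controls. The A libraries lay above all others and were close to each other. Its A against control difference was 0.59 ± 0.22 and its A against C difference 0.81 ± 0.19 (log2, SE, edgeR adjusted p = 0.145 and 0.137). With the replicate block the edgeR adjusted p was 0.0499 for A against control and 0.00841 for A against C. The first of these rests on matching the controls by number, which was not accepted as a pairing. An exon of col-99 overlaps one of daf-1.

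Other genes of the cuticle were described from lists, none of whose members was called by edgeR in any of the 3 comparisons. The 20 cuticle collagen genes with other names, such as dpy-7, rol-6, sqt-1 and bli-1, had a median A against control difference of 2.59, with 20 of 20 above 0. Their medians from the control mean were 0.45, 3.14 and 2.82 in A libraries 1, 2 and 3 and -1.26, -0.22 and -0.73 in C libraries 1, 2 and 3. The C against control median was -0.64 with 3 of 20 above 0, against 0.22 for the numbered genes. sqt-1 had 6.70, 48.0 and 32.8 CPM in the A libraries, 0.984, 3.47 and 1.498 CPM in the C libraries, and 4.91 and 3.62 CPM in the controls. All its A values lay above, and all its C values below, both controls. The 4 genes left out by name had A against control differences of 0.99 (col-19), 2.03 (col-62), 2.55 (col-7) and 4.01 (col-63). col-63 had 0.173, 6.94 and 18.5 CPM in the A libraries, 0.537, 2.37 and 1.27 CPM in the C libraries, and 0.671 and 0.365 CPM in the controls, below both controls in A library 1 as col-138 was.

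Enzymes and chaperones that process collagen had a median A against control difference of 0.50, with 7 of 8 above 0. Regulators of the moult had 0.33 with 9 of 10 above 0. Effectors of the moult, which are proteases, matrix proteins and their partners such as noah-1 and mlt-10, had 1.66 with 15 of 15 above 0. For C against control the moult effectors had -0.15, with 4 of 15 above 0.

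Some markers of other tissues moved with the same libraries, and others did not. The 9 whole-worm markers tested had a median A against control difference of 0.15, with 7 above 0. Among them ges-1 lay -0.20, -0.48 and -0.23 from the control mean in A libraries 1, 2 and 3, and unc-119 lay 0.06, 0.18 and 0.02 from it. The markers were not all stable, as 3 of the 9 met the A2/A3-high rule. In A libraries 2 and 3 dpy-7 lay 3.10 and 2.49 from the control mean, myo-2 2.70 and 1.77, and unc-54 2.08 and 1.65. The summed level of 10 body wall muscle genes was 1458 to 2668 CPM in A libraries, 931 to 1341 CPM in C libraries, and 848 and 1024 CPM in the controls, with 2668 CPM in A library 2. The pharynx genes, with 8 tested, summed to 56.9 to 151 CPM in A libraries, 42.5 to 55.5 CPM in C libraries, and 29.6 and 49.4 CPM in the controls. Major sperm protein genes, with 31 of 35 tested, summed to 8.98, 48.9 and 88.7 CPM in A libraries 1, 2 and 3, 6.68, 39.6 and 15.7 CPM in C libraries 1, 2 and 3, and 9.37 and 9.26 CPM in the controls. The sperm genes were thus high in A libraries 2 and 3 and in C library 2, like the A2/A3-high collagens. Their close copies could share reads. Germline genes stayed at 7011 to 7287 CPM in A libraries, 7282 to 7395 CPM in C libraries, and 7464 and 7682 CPM in the controls. Yolk protein genes had a median A against control difference of 0.23, early embryo genes 0.43 and basement membrane collagens 1.13. The early embryo medians from the control mean were 0.44, 0.16 and -0.01 in A libraries 1, 2 and 3. No marker on these lists was at 0 in all libraries. The part of these tissues, or of library differences, in the collagen levels was not tested.

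**Figure D5:**
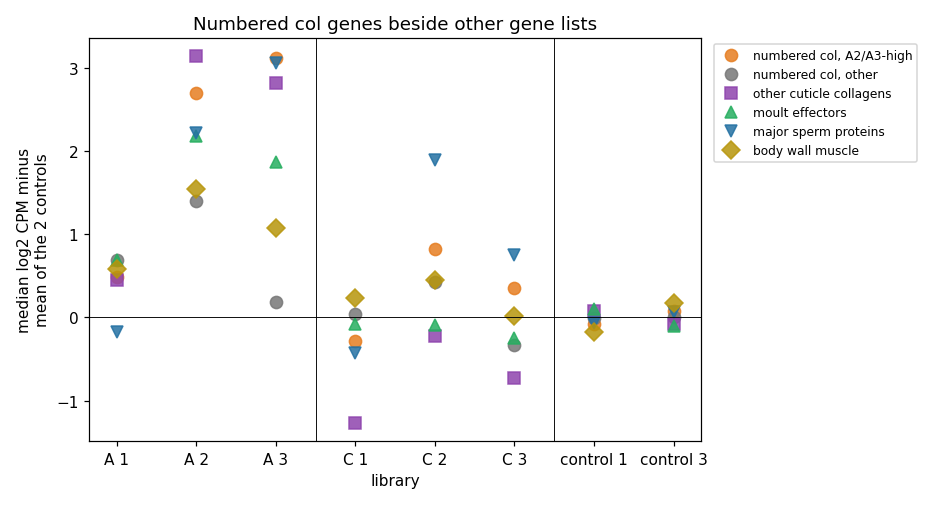
Symbols give the median over each list of log2 CPM minus the mean of the 2 controls, one column per library. The A2/A3-high collagens (orange), other-named cuticle collagens (purple) and major sperm protein genes (blue) are highest in A libraries 2 and 3, at medians from 2.21 to 3.14. Moult effectors (2.18 and 1.87) and body wall muscle genes (1.54 and 1.08) are also highest in A libraries 2 and 3.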

How the data were processed

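The authors deposited a table of counts per gene with its RPM and RPKM forms. The submitters' processing notes name bcl2fastq 1.8.4, TopHat2 2.1.0, featureCounts 1.5.0 and build WBcel235. The handling of multiply matching reads and the annotation release were not given in the sources used here. The deposited RPM is the count over its column total (checked to 4.91e-11), and the deposited RPKM is RPM over 1 fixed length per gene. Neither entered a test. The TruSeq RNA kit v2 was used, per the labels' protocols.

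Counts were tested in edgeR 4.0.16 (R 4.3.3) with a robust quasi-likelihood fit of 3 group means over all 8 libraries. The expression filter by group left 14772 genes, scaling was by TMM, and two-sided p-values were adjusted over these genes by the Benjamini-Hochberg method at 0.05. An SE is the log2 difference over the square root of F. Log2 CPM per library used a prior count of 2. Alternatives were DESeq2 1.42.0, limma-voom (limma 3.58.1), RLE size factors, no filter, a replicate block, only the groups compared, and each library left out. The scripts were tested on simulated data. Libraries of a group differed beyond sampling noise (chi-square of at least 17.9 for each degree of freedom) and none were merged.

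Same-numbered A and C libraries deviated together, at correlations over genes of 0.605, 0.433 and 0.220. Pairing was accepted on these values alone. A library 3 with C library 2, of different numbers, had 0.300, and the other pairs of different numbers had -0.549 to -0.057. Deviations within a group sum to 0, which pushes some pairs below 0. No label explains the numbers, and the block removes the spread it was accepted on. The controls share only numbers 1 and 3 and were not taken as paired. The block still holds their numbers, so its comparisons with the controls rest on a pairing that was not accepted.

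The genes, lists and classes were chosen with earlier results of these data known. Genes were named by control level (8), by p in each comparison (6), by highest and lowest difference in A libraries 2 and 3 (6 each, from 1 CPM), at the class threshold (2 on each side) and by known role. Others were chosen after their values were seen. Planned protein and promoter features were not analysed here, and no sequence is printed.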

Additional observations from a re-analysis of the deposited data

How the results depend on the processing

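Counts of called genes depended on the tool and on single libraries, and the cause was not tested. For A against control, edgeR's 0 genes became 8 without the filter, 1149 by DESeq2 (46 numbered col genes) and 546 with the replicate block (11 numbered col genes). Leaving out 1 library at a time gave 0 to 1303 genes and 0 to 66 numbered col genes, the highest without A library 1. For C against control, 14 genes became 155 by DESeq2, 102 with the replicate block, 23 with only the 2 groups compared, 25 with A libraries 2 and 3 both left out, and 1 to 15 with 1 library left out. For A against C, 6 genes became 12 without the filter, 663 by DESeq2 (34 numbered col genes), 1702 with the replicate block (34 numbered col genes) and 1 with only the 2 groups compared (0 numbered col genes). With 1 library left out they were 1 to 748 (0 to 51 numbered col genes, the highest without A library 1), and with A libraries 2 and 3 both left out 0 numbered col genes.

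The median difference of the numbered col genes kept its sign for A against control and A against C under every alternative run, and with A libraries 2 and 3 both left out was 0.53 and 0.32. For C against control it ran from -0.15 (replicate block) to 0.43. The A2/A3-high class held 63 to 85 genes under other thresholds, prior counts, scalings and filters, and 48 when set against the highest of the other 6 libraries, a stricter baseline by construction. Over 47 named differences and 702 recomputed values, 14 changed sign. With A libraries 2 and 3 both left out, A against control was -1.73 for col-88, -3.41 for col-175, -4.45 for col-138, -3.17 for col-49, -1.03 for col-120, 0.41 for col-183 and 0.11 for col-68. col-53, close to 0, was -0.0012 by limma-voom, -0.11 with the replicate block and -0.28 with both left out. With 1 library left out it was -0.081 to 0.156 for col-53, -0.208 to 0.066 for col-68 and -1.16 to 0.72 for col-183. Among named genes the replicate block brought the edgeR adjusted p of A against control to 0.0355 for col-150, 0.0476 for col-118 and 0.0388 for col-159, and that of A against C to 0.00989 for col-34 and 0.0151 for col-118. The A against control values rest on control numbers that were not accepted as paired. Genes under 10 counts in a control, and the 38 untested genes, are limited by depth.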
